A study of Mus musculus
Mus spretus with 18 samples.

Results

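The spleen of the adult mouse was set against 6 other sources of RNA from the same cross, namely cerebral cortex, heart, kidney, lung, liver and embryonic stem cells (ESC). The animals were F1 hybrids of a C57BL/6J mother and a SPRET/EiJ father, and stranded mRNA was sequenced from 2 biological replicates of each source. The organs came from female mice aged 8 weeks, ESC were 2 clones derived from the same cross and grown in culture, and the liver libraries were made for an earlier study. Spleen, lung and ESC were sequenced with shorter reads than heart, kidney and cortex, whose reads were later trimmed to the same length. The labels of the liver libraries spell the maternal strain as C57BL/7J and C57BL/8J, and these libraries were used as the study describes them. Of the 18 libraries, 2 are spleen and 12 are the others compared here, while 4 fibroblast libraries were not used. The labels do not tie a replicate number to an animal. The p-values rest on the spread between the 2 samples within each tissue, pooled over the 7 tissues, and not on the spread among tissues.

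Events were chosen by their read coverage. A skipped exon (SE) event is an exon that can be spliced in or left out between 2 flanking exons, and its percent spliced in (PSI) runs from 0 to 1. An event counted as expressed in a tissue when at least 20 junction reads covered it in both replicates. Of 97090 autosomal SE events in the tables of the 7 tissues, 32205 were expressed in spleen, and 19726 of these were also expressed in at least 3 other tissues. They concern 18070 distinct exons in 7460 genes. Gene levels were read as TPM, a transcript level scaled to transcript length and library size, for 38924 genes. Summed over the SE events of each tissue's table, junction reads came to 64556745 and 62175924 in the spleen libraries. The range of these sums over the 14 libraries was 46558287 to 129496306. A read that covers several events is counted at each, and the tables differ in their number of events, so these sums are not library depths.

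The spleen filters blood and is the largest secondary lymphoid organ. Its white pulp holds follicles of B cells and sheaths of T cells, laid out by chemokines that stromal cells secrete. Its red pulp holds macrophages that take up aged red cells and return their iron, and in the mouse it also carries out blood formation in the adult. Lymphocytes are known for isoforms of their surface receptors and kinases that other cells do not make. In bulk RNA of this kind, more cells of a type and more RNA per cell cannot be told apart.

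The spleen libraries differed from each other in the levels of cell type markers, and this touches the results that follow. The median gene was 0.06 lower on the log2(TPM + 1) scale in replicate 2, while 303 of 22475 genes tested were at least 2-fold higher in replicate 2 and 72 in replicate 1. Summed levels of the B cell markers were 6217 TPM in replicate 1 and 4041 TPM in replicate 2. The erythroid markers went the other way, with sums of 3384 and 7616 TPM, as did the plasma cell markers with 1605 and 3018 TPM. Sums over 20 proliferation genes were 742 and 1492 TPM. All 8 B cell markers and all 8 T cell markers were lower in replicate 2, and all 8 erythroid and 6 neutrophil markers were higher in it. Of the 8077 genes called different in spleen, 276 were at least 2-fold apart between its replicates.

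**Figure D1:**
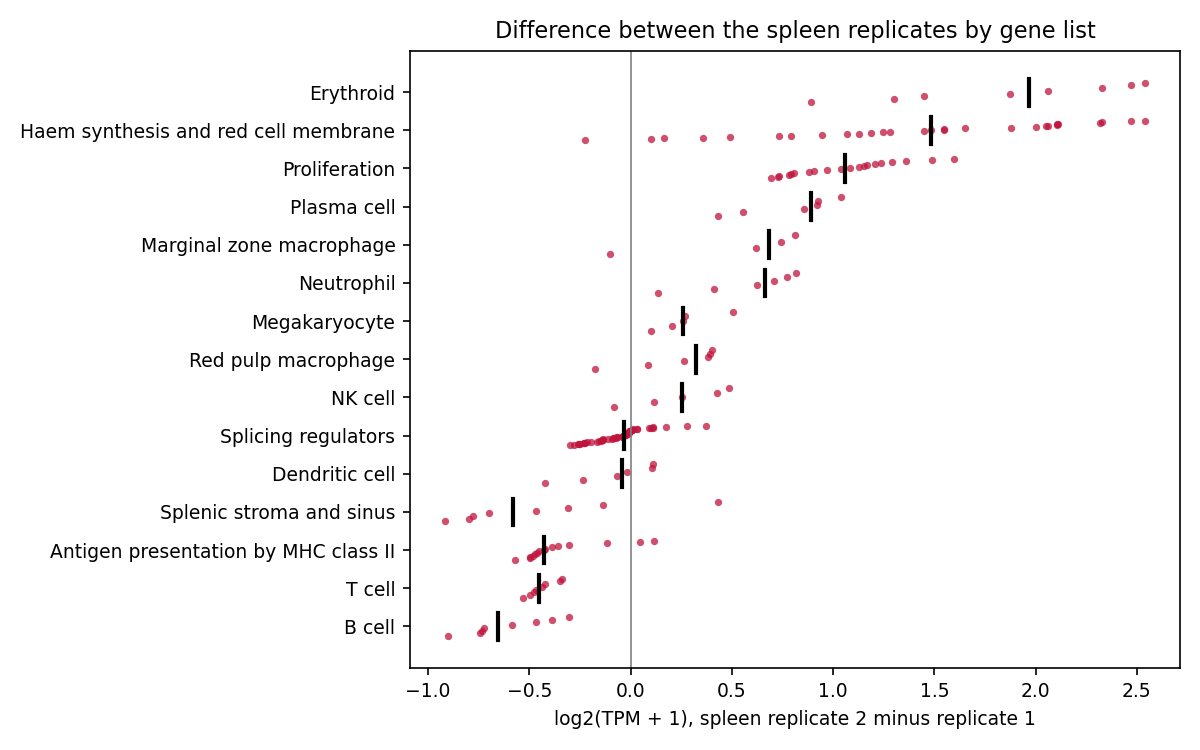
Difference between the spleen libraries in log2(TPM + 1), replicate 2 minus replicate 1, for each gene (points) of 15 marker and pathway lists, with the list median as a black bar. Erythroid genes sit highest with a median of 1.97, followed by haem synthesis and red cell membrane genes at 1.48 and proliferation genes at 1.06, while B cell genes lie below zero with a median of -0.66.

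The label of the organ was checked against marker genes, and its own markers follow below by cell type. The 7 markers of the exocrine pancreas, which lies beside the spleen, summed to 0.682 and 0.470 TPM, and none passed the filter of a mean of 1 TPM in a tissue. Fat markers summed to 227 and 193 TPM in spleen against 0.0870 to 972 TPM elsewhere, and smooth muscle markers to 642 and 440 TPM against 6.77 to 1523 TPM. Among markers that define the other tissues, 8 of 12 were lower in spleen, and the lung markers Scgb1a1 and Sftpc were called higher than the mean of the others at levels far below those of lung. The Sftpc call was lost under both scalings and without ESC, liver, cortex or spleen replicate 1.

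More genes were higher than lower in spleen against the mean of the 6 other tissues. Of 22475 genes tested with limma on log2(TPM + 1), 4731 (21.1%) were called higher and 3346 (14.9%) lower (35.9% in all), with a Benjamini-Hochberg adjusted p under 0.05 and a log2 difference of at least 1. The median difference over all genes was 0.01. This balance moved with scaling. Libraries rescaled by the median ratio gave 3485 higher and 4204 lower genes, and quantile normalization gave 3633 and 4106. A scaling lowered the median gene by 0.22 or 0.20, and leaving out liver gave 3996 and 4057. A stricter group was set apart, with both spleen libraries at least 1 log2 unit beyond each of the 12 others. It held 1209 higher genes (5.38%) and 65 lower genes (0.289%), or 5.67% of genes in all. For 891 of the 1209 higher genes the next library was lung, and for 116 it was ESC.

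The 12 genes set apart by the widest margin included genes of neutrophil granules, of red cells, of platelets and of B cells. Ngp, a neutrophil granule protein, stood at 124 and 191 TPM in spleen against 0 to 0.351 TPM in the 12 others, whose median was 0.118 TPM. The log2 difference was 7.07 ± 0.13 (SE), with an adjusted p of 4.2e-10. Camp, the precursor of an antimicrobial peptide of the same granules, stood at 86.2 and 115 TPM against at most 0.366 TPM, a log2 difference of 6.53 ± 0.09. Car1, the carbonic anhydrase of red cells, was at 369 and 1001 TPM against at most 4.84 TPM in liver, and its log2 difference was 8.73 ± 0.29. Ppbp, a platelet chemokine, was at 250 and 355 TPM against at most 5.42 TPM in lung. These 4 genes were chosen by their margin over every other library. Car1 differed between the spleen replicates by more than Ngp, Camp and Ppbp did.

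B cell genes made up 7 of the 12 genes with the widest margin. Ms4a1, which encodes the B cell surface protein CD20, was measured at 593 and 481 TPM in spleen against 0.0864 to 10.2 TPM elsewhere (median 0.355 TPM), a log2 difference of 8.06 ± 0.33. Cd22, an inhibitory co-receptor, was at 515 and 394 TPM against at most 9.79 TPM. Spib, a transcription factor of B cells, was at 492 and 313 TPM against at most 7.69 TPM. Pou2af1, a coactivator of immunoglobulin genes, held nearly the same level in both replicates with 280 and 291 TPM against at most 6.12 TPM. Tnfrsf13c, the receptor for the survival factor BAFF, stood at 306 and 189 TPM and had its next level in ESC at 3.95 TPM. Fcrl1 and Bank1, both acting on B cell receptor signals, reached 269 and 197 TPM and 194 and 166 TPM, against at most 4.89 and 2.98 TPM in lung. Cxcl13, the stromal chemokine that draws B cells into follicles, completed the 12 genes with 578 and 337 TPM against at most 9.0 TPM in kidney.

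The 6 genes set apart downwards by the widest margin follow. Cxadr, a junction protein and virus receptor, fell to 1.36 and 1.09 TPM in spleen against 12.5 to 34.4 TPM elsewhere (median 23.6 TPM). Its log2 difference was -3.36 ± 0.10, with an adjusted p of 4.4e-09. Pkp2, a desmosome protein, stood at 0.462 and 0.530 TPM against at least 5.70 TPM. Prkaa2, a catalytic subunit of the energy sensor AMPK, was at 0.295 and 0.409 TPM against at least 5.33 TPM. Klf15, a transcription factor of fuel metabolism, was at 3.26 and 2.72 TPM against at least 19.5 TPM. Car8 and Rnf128, the latter a ubiquitin ligase, had log2 differences of -3.97 ± 0.14 and -4.56 ± 0.42. Lung was the tissue whose gene levels lay nearest to those of spleen, with a mean size of the log2 difference of 0.99 per gene. Against lung alone 3660 genes (16.3%) were called higher and 3869 (17.2%) lower, 33.5% in all.

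Antigen receptor segments were nearly uniform in direction. Of 387 immunoglobulin and T cell receptor segments tested, 381 were called higher, none lower, and 339 were set apart, with a median log2 difference of 4.26. The 6 that were not called all belong to T cell receptor loci. The 126 heavy chain segments summed to 28488 and 67651 TPM in spleen, against 1460 and 1651 TPM in lung. Kappa segments, all 105 called, summed to 55534 and 116670 TPM. The T cell receptor segments did not show the same imbalance, with sums of 5311 and 4141 TPM. Many joining and diversity segments are very short, so that few reads give them a high TPM.

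Among constant regions, IgM was even between replicates and the IgG classes were not. Ighm, the constant region of IgM, stood at 11788 and 14527 TPM against at most 284 TPM in lung, a log2 difference of 9.15. Igkc, the kappa constant region, was at 30582 and 62108 TPM. Igha, of the mucosal class IgA, was at 3447 and 2334 TPM, and lung held 624 and 450 TPM. Ighg3, of the class IgG3, was picked out after its values were seen: it stood at 571 TPM in replicate 1 and 13121 TPM in replicate 2. Ighg2b was at 589 and 4331 TPM and Ighg2c at 477 and 4520 TPM, while Ighg1 was at 357 and 572 TPM. The T cell receptor constant regions Trac and Trbc2 stood at 501 and 371 TPM and at 591 and 408 TPM, against at most 47.0 and 30.6 TPM elsewhere.

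**Figure D2:**
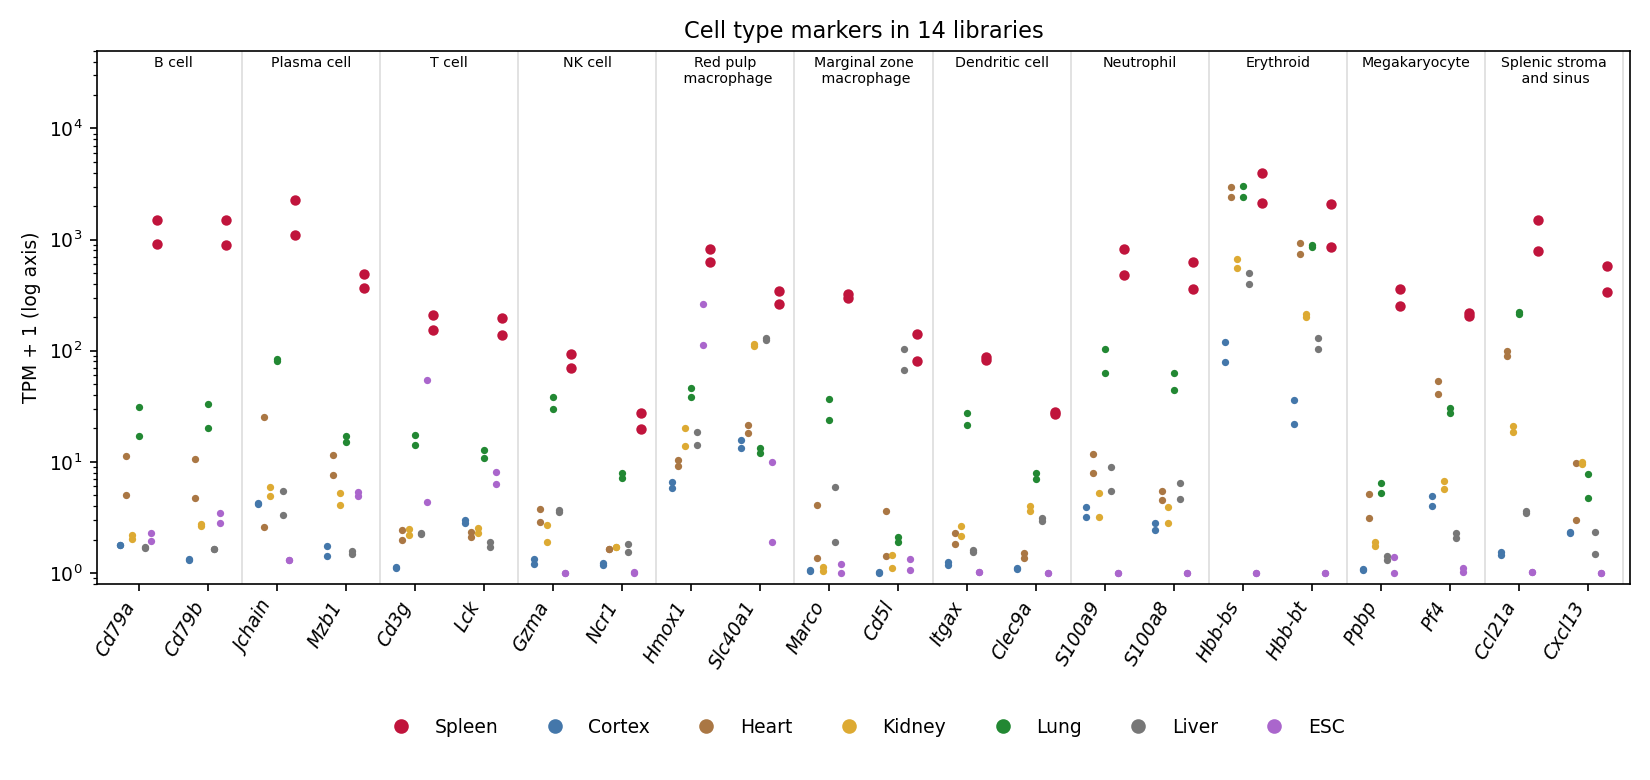
Level of 22 marker genes, the 2 highest of each cell type list, in each of the 14 libraries on a log axis of TPM + 1, with spleen as larger red points. Spleen lies above every other library for the B cell, T cell and stromal genes shown, while the globin genes reach similar levels in lung and heart.

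All 8 B cell markers were called higher and set apart, with a median log2 difference of 7.87. Cd79a and Cd79b, the signalling chains of the B cell receptor, were at 1510 and 907 TPM and at 1490 and 891 TPM, against at most 30.4 and 32.3 TPM in lung. Of 31 genes of B cell receptor signalling, 30 were called higher and 25 were set apart, and the median was 4.72. The phosphatase Ptpn6 led the signalling members below the receptor with 624 and 476 TPM. The kinases Syk and Btk stood at 216 and 186 TPM and at 138 and 112 TPM, against at most 13.7 and 6.94 TPM. The exception was Cd81, a widely expressed membrane protein, at 236 and 204 TPM within the range of 133 to 475 TPM of the others. Plcg2, Inpp5d, Bcl10, Prkcb and Fcgr2b were called higher without being set apart, since ESC, cortex or kidney carried them too.

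Of 6 plasma cell markers, 4 were called higher and all 6 were higher in replicate 2 than in replicate 1. Jchain, which joins IgM and IgA into polymers, was at 1094 and 2249 TPM against at most 82.4 TPM, a log2 difference of 7.89 ± 0.64. Mzb1, a chaperone of immunoglobulin assembly, was at 366 and 494 TPM. Xbp1, the factor that expands the secretory pathway, was at 117 and 223 TPM against 50.9 to 152 TPM elsewhere, and was not called. Sdc1, the plasma cell surface marker that epithelia also carry, was at 14.7 and 28.8 TPM, with a log2 difference of -2.83 against lung. The direction of Sdc1 against the mean of the others turned when spleen replicate 1, liver or lung was left out.

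All 8 T cell markers were likewise set apart, at a lower level than those of B cells and with a median log2 difference of 5.30. Cd3g, a chain of the receptor complex, was at 211 and 151 TPM in spleen against 0.114 to 53.0 TPM (median 1.35 TPM). Its highest other library was replicate 2 of ESC, and replicate 1 of ESC held 3.33 TPM. Lck, the kinase that starts T cell receptor signalling, was at 195 and 138 TPM against at most 11.7 TPM. Cd8b1 and Cd4, the co-receptors of cytotoxic and helper T cells, stood at 107 and 73.9 TPM and at 81.9 and 64.5 TPM. Foxp3, the factor of regulatory T cells, was low at 9.93 and 6.90 TPM, and still above the 0.489 TPM of the next library.

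In T cell receptor signalling 29 of 31 genes were called higher and 24 set apart, with a median of 3.90. The pan-leukocyte phosphatase Ptprc led with 382 and 347 TPM against at most 26.1 TPM in lung, a log2 difference of 6.35 ± 0.18. Tcf7, a transcription factor of T cells, was at 265 and 201 TPM, and the adaptor Lat at 250 and 161 TPM. Plcg1 and Gata3 were not called, the former at 40.4 and 30.1 TPM with up to 66.5 TPM elsewhere. Gata3 was lower in spleen than in lung. Natural killer cell markers were all 5 called higher with a median of 3.58, led by Gzma, a granzyme, at 68.8 and 92.9 TPM against at most 37.5 TPM in lung.

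Antigen presentation by MHC class II followed the lymphoid pattern, with 14 of 15 genes called higher and set apart and a median of 5.49. Cd74, the invariant chain, was at 9846 and 7088 TPM, and lung followed at 1768 and 2431 TPM, so that the difference against lung was 2.01 where that against the mean of the others was 6.13 ± 0.40. Ciita, the master regulator of the class II genes, was at 129 and 119 TPM against at most 12.4 TPM. H2-Ob, part of a class II modulator of B cells, was at 454 and 325 TPM against at most 14.1 TPM. Lgmn, a protease of lysosomes, was at 214 and 232 TPM and not called, with up to 1139 TPM in kidney. Of 6 dendritic cell markers, 5 were called higher, with Itgax at 81.4 and 87.6 TPM and the cross-presenting subset's receptor Clec9a at 27.1 and 25.8 TPM. Zbtb46 was not called at 10.3 and 10.2 TPM.

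Of 28 chemokine and lymphotoxin genes that lay out the follicle, with their receptors, 24 were called higher, 19 were set apart and the median was 3.95. The 4 not called were Tnfsf13 and the receptors Tnfrsf1a, Ltbr and S1pr2, and these and Icam1 were lower than in lung. Ccl21a, the T zone chemokine, was at 1496 and 792 TPM against at most 223 TPM in lung, a log2 difference of 6.58 ± 0.18. Ccl19, its partner, was at 231 and 133 TPM against at most 6.95 TPM. Cxcr5 and Ccr7, the receptors that read the B cell and T cell zone signals, were at 172 and 125 TPM and at 179 and 112 TPM. Ltb, the lymphotoxin chain made by lymphocytes, was at 584 and 339 TPM against at most 19.4 TPM, whereas its receptor Ltbr was at 39.6 and 37.6 TPM and lung held 151 TPM in both replicates. The adhesion protein Icam1 was called higher than the mean of the others, with a log2 difference of 1.83, and lower than lung, with -2.18.

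Transcription factors that build the spleen in the embryo were still expressed in the adult organ. Tlx1, without which no spleen forms, was at 47.7 and 43.2 TPM against at most 1.28 TPM in ESC, a log2 difference of 5.35 ± 0.15. Nkx2-3, a homeobox factor of spleen and gut vasculature, was at 27.1 and 21.7 TPM against at most 0.436 TPM. Nkx3-2 was at 5.82 and 6.32 TPM against at most 0.242 TPM. These were the 3 of 9 organogenesis factors that were set apart. Tcf21 and Wt1 were called higher but not set apart, with 112 and 97.1 TPM and up to 286 TPM in lung for Tcf21. Nr2f2 was not called, at 19.9 and 18.5 TPM. The stroma and sinus list of 8 genes was all called higher with 6 set apart, and the exceptions to setting apart were Stab2, which liver sinusoids also carry, and Nkx2-5, which heart carries.

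Macrophage genes of the red pulp and the marginal zone were higher, and the genes of iron recycling were mixed. All 6 red pulp markers were called higher, with a median of 4.06. Hmox1, the enzyme that opens haem and frees its iron, was at 624 and 813 TPM against 4.84 to 263 TPM (median 15.3 TPM), a log2 difference of 5.01 ± 0.27. Slc40a1, the iron exporter ferroportin, was at 261 and 343 TPM against at most 129 TPM in liver. Spic, the transcription factor that red pulp macrophages need, was at 64.9 and 57.3 TPM, and ESC held 5.37 and 20.5 TPM. Among marginal zone markers all 4 were called higher, with the scavenger receptor Marco at 320 and 299 TPM against at most 35.7 TPM and Cd209b at 25.2 and 42.8 TPM against at most 1.30 TPM. In the wider list of iron recycling 14 of 22 genes were called higher (11 under either scaling), 1 lower and 7 neither, with a median of 1.37. Over all genes tested, 21.1% were called higher and 14.9% lower. The ferritin heavy chain Fth1 was at 3447 and 3557 TPM within 1038 to 6535 TPM elsewhere. The haem carrier Hpx, a secreted liver protein, was the member called lower, and it lost the call when liver was left out.

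Genes of red cells and their precursors were higher in spleen, and more so in replicate 2. Hbb-bs, a beta globin, was at 2117 and 3931 TPM, and lung held 3057 and 2432 TPM, so that spleen and lung differed by 0.08 on the log2 scale (adjusted p = 0.88). All 8 erythroid markers measured were called higher than the mean of the others, but only 4 of them against lung. Klf1 was set apart where the globins were not. Klf1, the erythroid transcription factor, was at 26.6 and 114 TPM against 0.0772 to 2.88 TPM, a log2 difference of 5.04 ± 0.38. Gata1 stood at 26.0 and 63.0 TPM, and Rhag and Rhd, of the Rh complex, at 6.79 and 37.8 TPM and at 19.5 and 83.7 TPM.

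Of 29 genes of haem synthesis and the red cell membrane, 17 were called higher and 2 lower, where 21.1% and 14.9% of all genes were. In this list 28 genes were at a higher level in replicate 2 than in replicate 1. Its counts called higher and lower were 15 and 4 without spleen replicate 2, and 18 and 1 without spleen replicate 1. The lower members were Alas1, the housekeeping form of the first enzyme of haem synthesis, at 27.7 and 23.5 TPM against up to 160 TPM in heart, and Tmod1, an actin cap of muscle as well as of red cells. The erythroid form Alas2 was at 52.2 and 144 TPM with up to 94.6 TPM in heart. All 20 proliferation genes were called higher, none was set apart, and of the 12 other libraries one of ESC held the highest level of each. Mki67, a marker of cycling cells, was at 35.9 and 103 TPM in spleen, 68.2 and 78.2 TPM in ESC and at most 3.88 TPM in the other organs. All 6 neutrophil markers were called higher, with S100a9 at 481 and 823 TPM against at most 103 TPM in lung. All 5 megakaryocyte markers were set apart, with the platelet factor Pf4 at 204 and 219 TPM against at most 52.0 TPM in heart.

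Counts of genes called higher than the mean of the others in the B cell, T cell, natural killer, red pulp, marginal zone, neutrophil, erythroid, megakaryocyte, stroma, MHC class II and both receptor signalling lists were the same under every scaling, filter and left-out library tried, while counts against lung moved in some of them. Against lung, erythroid genes called higher numbered 5 without spleen replicate 1 and 3 without spleen replicate 2 or lung replicate 1. Each of these lists, and each other gene list above, was chosen with results of these data known. Beside the counts of every list stand the shares of all genes tested. These were 21.1% called higher, 14.9% called lower and 5.38% set apart as higher.

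Splicing was then compared through PSI. Of the 19726 events, 7068 varied enough to test, and 308 of these passed that filter through spleen alone. More events were spliced in less than were spliced in more in spleen, against the mean of the expressed other tissues. In all, 324 events (4.58%) were called higher and 751 (10.6%) lower, at an adjusted p under 0.05 and a PSI difference (ΔPSI) of at least 0.1. The median ΔPSI over all events was 0.00137. Events set apart, with both spleen libraries at least 0.1 beyond every other library, numbered 26 higher (0.368%) and 82 lower (1.16%), or 1.53% in all, in 104 exons of 91 genes. Of these 108 events 21 passed the variability filter through spleen alone, as did 7 of the events called higher and 47 of those called lower. Without the cortex libraries, an alternative added after seeing the data, 189 events were called higher and 477 lower.

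**Figure D3:**
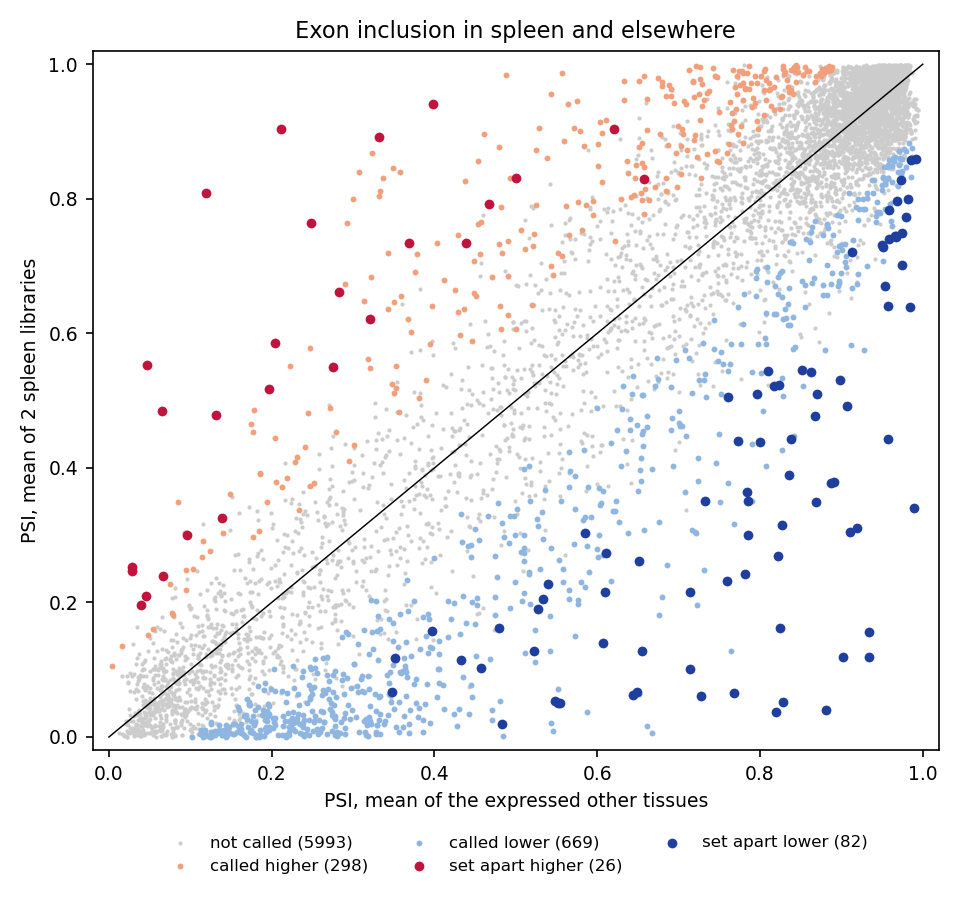
Mean PSI in spleen against the mean PSI of the expressed other tissues for the 7068 events tested, coloured by call. Of the set-apart events, 82 lie below the diagonal and 26 above it, and both groups were chosen by these values.

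Lung was the nearest tissue in splicing too. Over 3914 events expressed in all 7 tissues, the mean size of the PSI difference was 0.0611 from lung, 0.0696 from kidney, 0.0823 from liver, 0.0949 from ESC, 0.120 from heart and 0.160 from cortex. The spleen replicates differed from each other by 0.0409. Against lung alone, 102 of 6470 events (1.58%) were called higher and 204 (3.15%) lower, 4.73% in all.

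The event with the widest margin in the higher direction was in Fcgr2b, the inhibitory IgG receptor. As background, its isoforms differ by an insert in the cytoplasmic tail that B cells include and phagocytes skip. An exon of 57 bases at chr1:170963409-170963465 (mm10, minus strand) was included at a PSI of 0.822 and 0.796 in spleen, from 725 and 718 reads. The 10 libraries of the 5 other tissues that expressed it ran from 0.00797 to 0.245 (median 0.0907), with both lung libraries highest. The ΔPSI was 0.690 ± 0.020 (SE), with an adjusted p of 3.2e-06. A longer form of 141 bases that shares the higher genomic coordinate gave 0.916 and 0.891 in spleen against 0.0206 to 0.414. Both events have the same flanking exons, so each PSI sets its own form against skipping and is not a share of all transcripts. The gene itself was higher in spleen by 3.18 ± 0.15 on the log2 scale, at 73.7 and 61.0 TPM against up to 34.4 TPM in kidney.

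The next exons by margin lay in Tcf7, Arhgef1 and Arap1. Tcf7 included an exon of 93 bases (chr11:52258853-52258945, minus strand) at 0.743 and 0.784 against 0.101 to 0.439 (median 0.243), a ΔPSI of 0.515 ± 0.022. Arhgef1, a GTPase exchange factor of leukocytes, included 12 bases (chr7:24918520-24918531, plus strand) at 0.891 and 0.894 against 0.0560 to 0.588, a ΔPSI of 0.560 ± 0.037. Arap1, which switches off Arf GTPases, included 33 bases (chr7:101404933-101404965, plus strand) at 0.587 and 0.518 against 0.00478 to 0.183. These exons were chosen by their margin over every other library. Lung came closest in Arhgef1 and Arap1, and each of these 3 genes was also called higher in spleen.

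Smaller shifts in the same direction were found in 5 further genes. Irgm1, an interferon-inducible GTPase, included 219 bases at 0.562 and 0.473 against 0.135 to 0.287. Nkiras1, an inhibitor of NF-kB signalling, included 258 bases at 0.505 and 0.453 against 0.0414 to 0.262, with no call on its gene level. Arhgap12, a GTPase-activating protein, included a micro-exon of 15 bases at 0.737 and 0.587 against 0.129 to 0.450. Nisch, an integrin-binding protein, included 142 bases at 0.274 and 0.220 where no other library passed 0.0624, and it passed the variability filter through spleen alone. Ablim1, an actin-binding protein, included 67 bases at 0.554 and 0.415, but from only 20 and 21 spleen reads and against 3 other tissues.

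**Figure D4:**
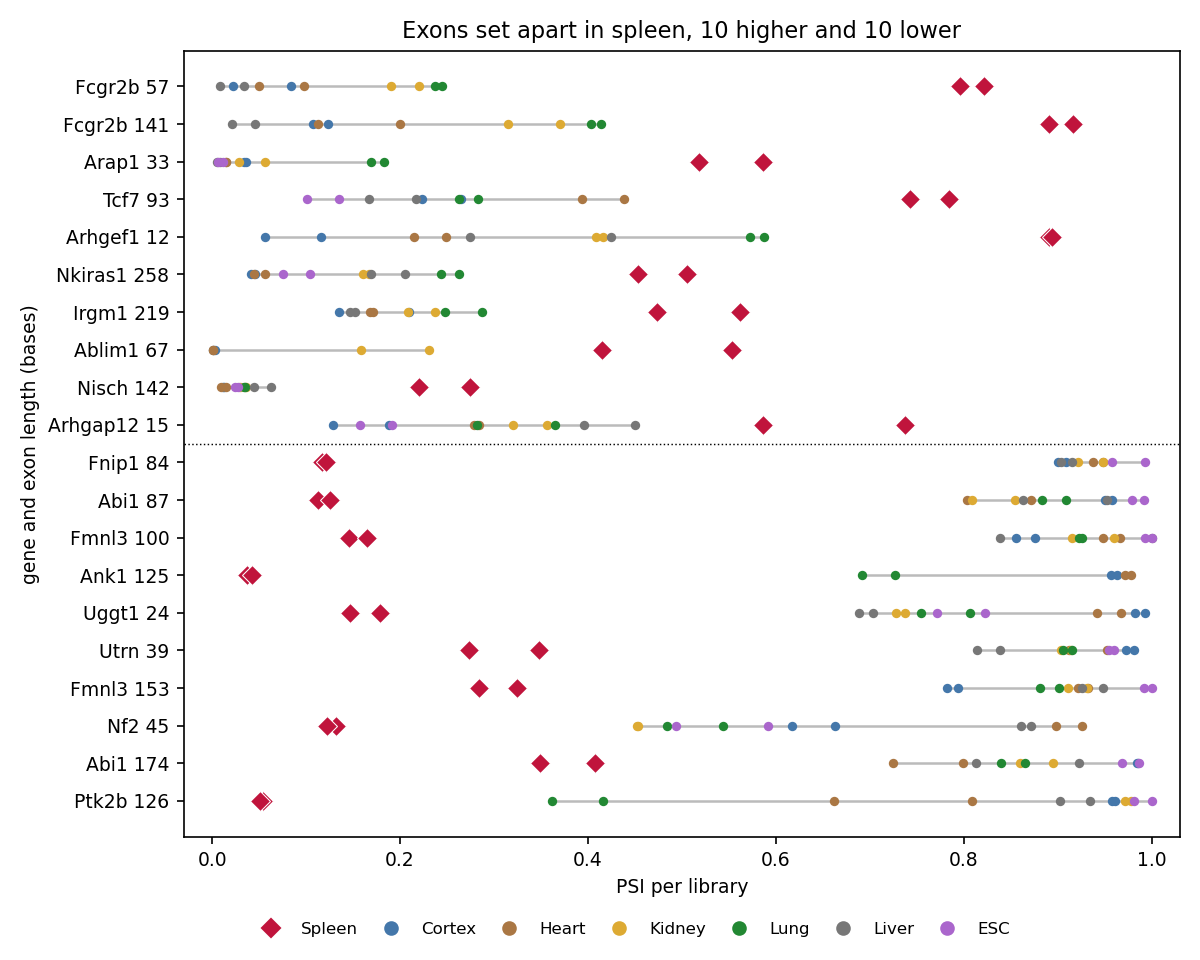
PSI in each library for the 20 exons set apart by the widest margin, 10 spliced in more and 10 spliced in less in spleen, with spleen as diamonds and other tissues as circles. The spleen values of the lower exons lie at 0.407 or less, and those of the higher exons between 0.220 and 0.916.

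Among the 10 exons set apart downwards by the widest margin, Abi1 and Fmnl3, both of which act on actin, held 2 each. Abi1, a subunit of the WAVE complex that starts actin branching, left out an exon of 87 bases (chr2:22950184-22950270, minus strand), at a PSI of 0.113 and 0.126 against 0.804 to 0.992 (median 0.896). The ΔPSI was -0.783 ± 0.026, with an adjusted p of 2.5e-07. Another Abi1 event with an exon of 87 bases lay closer to the others, at 0.216 and 0.215 against 0.321 to 0.914 (median 0.820). A neighbouring exon of 174 bases in Abi1 stood at 0.349 and 0.407 against 0.725 to 0.987. Fmnl3, a formin that elongates actin filaments, had a PSI of 0.146 and 0.165 at an exon of 100 bases (chr15:99318918-99319017, minus strand) against 0.839 to 1.00, and of 0.284 and 0.325 at one of 153 bases against 0.782 to 1.00. The Abi1 events at chr2:22950184-22950270 and of 174 bases have the same flanking exons, so they share their skipping reads. The exons of both genes were chosen by their margin over every other library. Fmnl3 was also higher as a gene by 2.11 on the log2 scale, while Abi1 was not called.

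Exons of Ank1, Utrn and Nf2, whose proteins tie the cell membrane to its skeleton, were also skipped. Ank1, the ankyrin of red cells, had a PSI of 0.0368 and 0.0421 at an exon of 125 bases (chr8:23141596-23141720, plus strand), from 197 and 829 spleen reads, against 0.692 to 0.978 in the 3 other tissues that expressed it. Utrn, a relative of dystrophin, had 0.274 and 0.348 at 39 bases (chr10:12415451-12415489, minus strand) against 0.814 to 0.981 (median 0.915). Nf2, which encodes merlin, had 0.132 and 0.122 at 45 bases (chr11:4780578-4780622, minus strand) against 0.452 to 0.926. Neither Utrn nor Nf2 was called at the gene level. Another Ank1 event with an exon of 125 bases gave 0.333 and 0.348 in spleen against 0.975 to 0.998, so the PSI depends on the event. Within each Ank1 event the PSI was nearly the same in both spleen libraries, while the gene stood at 3.60 TPM in replicate 1 and 17.4 TPM in replicate 2.

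The remaining 3 exons lay in Ptk2b, Uggt1 and Fnip1. Ptk2b, the tyrosine kinase Pyk2, for which a shorter form in blood cells is known, had a PSI of 0.0539 and 0.0511 at an exon of 126 bases (chr14:66163025-66163150, minus strand), from 1926 and 1603 reads. The 12 other libraries ran from 0.362 in lung to 1.00 in ESC (median 0.946), and the ΔPSI was -0.776 ± 0.033. Uggt1, the sensor of glycoprotein folding, had 0.146 and 0.179 at a micro-exon of 24 bases (chr1:36176776-36176799, minus strand) against 0.688 to 0.993. Fnip1, an AMPK partner that B cell development needs, had 0.117 and 0.121 at 84 bases (chr11:54487712-54487795, plus strand) against 0.901 to 0.993. It was not expressed in lung and passed the variability filter through spleen alone. All 20 of these exons stayed called in each alternative in which they were tested. Skipping keeps the reading frame by length in 16 of the 20, the exceptions being Ablim1, Nisch, Ank1 and the Fmnl3 exon of 100 bases.

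The called exons were then described by length and frame. Among distinct exons, 46.4% of all tested had a length that is a multiple of 3, against 63.2% of those called higher, 67.6% of those called lower and 43.0% of those not called. The median length was 107 bases over all, 105.5 for higher and 83.0 for lower exons. Micro-exons of at most 30 bases made up 281 (4.36%) of all tested exons, 16 (5.16%) of the higher and 102 (14.3%) of the lower ones. Cortex carries many micro-exons at high inclusion, and without its libraries the lower share was 41 of 453 (9.05%), against 217 of 5690 (3.81%) tested. These shares are descriptions of the called exons and were not tested.

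A list of genes known for lymphoid or erythroid isoforms was read next, chosen with results of these data in view. The events tested in it need not be those isoforms. In 46 genes of the list 129 events were tested. Of these, 16 were called higher and 44 lower, 46.5% in all against 15.2% of all events tested. Without cortex 15 and 29 of 119 were called, and with spleen replicate 1 or replicate 2 left out 10 and 36. Mbnl1, a splicing regulator that acts on its own exons, included 36 bases at 0.923 and 0.868 against 0.110 to 0.796 (median 0.497), a ΔPSI of 0.434 ± 0.024. Itga6, an integrin chain, included 130 bases at 0.838 and 0.815 against 0.0402 to 0.781. Dnm2, the dynamin of endocytosis, included 12 bases at 0.851 and 0.869 against 0.180 to 0.877, so that its highest other library reached the spleen values. Syk included 69 bases at 0.960 and 0.952 against 0.344 to 1.00, and Lef1, a partner of Tcf7, included 84 bases at 0.971 and 0.956 against 0.0683 to 0.90. The Syk and Lef1 calls were lost when either spleen library was left out.

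The lower events of this list lay in many genes, with 5 in Fnbp1 and 4 each in Bin1 and Sec31a. Events of 1 gene can share reads, so these are not counts of separate exons. Fyb, an adaptor of T cells and platelets, had a PSI of 0.453 and 0.517 at 138 bases against 0.594 to 0.951 (median 0.851), a ΔPSI of -0.318, while the gene was higher by 4.70 on the log2 scale. Picalm, which brings clathrin to the membrane, had 0.216 and 0.194 at 24 bases against 0.0537 to 0.952, within the range of the others. Sptan1, a spectrin chain, had 0.0886 and 0.148 at 15 bases against 0.0269 to 0.969, and this call was lost without cortex. Some lower calls were made where spleen lay near the median of the other libraries. Cltb, at 54 bases, had a mean PSI of 0.0030 in spleen against a median of 0.0033 and a highest value of 0.816. Mef2c, at 24 bases, had 0.0045 against a median of 0.0059 and a highest value of 0.980. Clta, Camk2g, Ctnnd1, Macf1 and Mbnl1 each held events called in both directions. The lower Mbnl1 event, an exon of 1049 bases, had 0.565 and 0.557 against 0.204 to 0.969 (median 0.786), and its call was lost with either spleen library left out.

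Ptprc, whose alternative exons give the isoforms of CD45 that mark stages of lymphocytes, could be compared at only 1 of its 24 events. An exon of 72 bases (chr1:138116954-138117025, minus strand) had a PSI of 0.958 and 0.939 in spleen, from 3062 and 3719 reads. Heart, kidney and lung ran from 0.798 to 0.959, and the ΔPSI of 0.073 was not called (adjusted p = 0.27). The variable exons before it were covered well in spleen alone. Each of them has 3 or more events that differ in the flanking exons, and the PSI depends on the event. In transcript order, the exon of 129 bases had a PSI of 0.561 and 0.553 in one event, from 1496 and 1760 reads, and 0.751 and 0.694 or 0.985 and 0.994 in the others. The exon of 147 bases ran from 0.409 and 0.439 in its lowest event, from 1003 and 1297 reads, to values near 1 in others. The exon of 141 bases ran from 0.0993 and 0.0244, from 83 and 126 reads, to 0.999 and 0.989, and the event with the next lowest PSI gave 0.654 and 0.626. In the lowest event of the 147-base exon lung gave 0.109 and 0.150 from 51 and 46 reads and kidney 0.050 and 0.183 from 21 and 42 reads, so that spleen lay above both, without a test.

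Of 54 splicing regulators, 18 were called higher and 11 lower, with a median log2 difference of 0.69, where 21.1% of all genes were called higher and 14.9% lower. The counts were 5 higher and 16 lower under the median ratio scaling, 14 and 16 under quantile normalization and 11 and 16 without liver. Mbnl1 was the one regulator set apart, at 153 TPM in both libraries against 7.29 to 74.6 TPM (median 37.2 TPM), a log2 difference of 2.14 ± 0.14. Rbm38, an RNA-binding protein of red cells and p53 responses, was at 130 and 110 TPM, and heart held 133 and 134 TPM. Ptbp1, a repressor of neuronal exons, was at 195 and 194 TPM, below the 372 TPM of ESC. Of the lower factors, Rbfox2, a regulator of muscle, neuronal and epithelial exons, was at 8.32 and 7.37 TPM against 12.3 to 137 TPM (median 46.3 TPM), a log2 difference of -2.16 ± 0.09. Esrp2 and Rbm20, regulators of epithelial and heart muscle exons, stood at 0.419 and 0.293 TPM and at 0.224 and 0.199 TPM. Hnrnpll, known for repressing the variable exons of Ptprc, was at 5.86 and 7.90 TPM within 4.37 to 19.7 TPM and was not called. Elavl2, Elavl3, Nova2 and Celf5 lost the call without the cortex libraries.

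**Figure D5:**
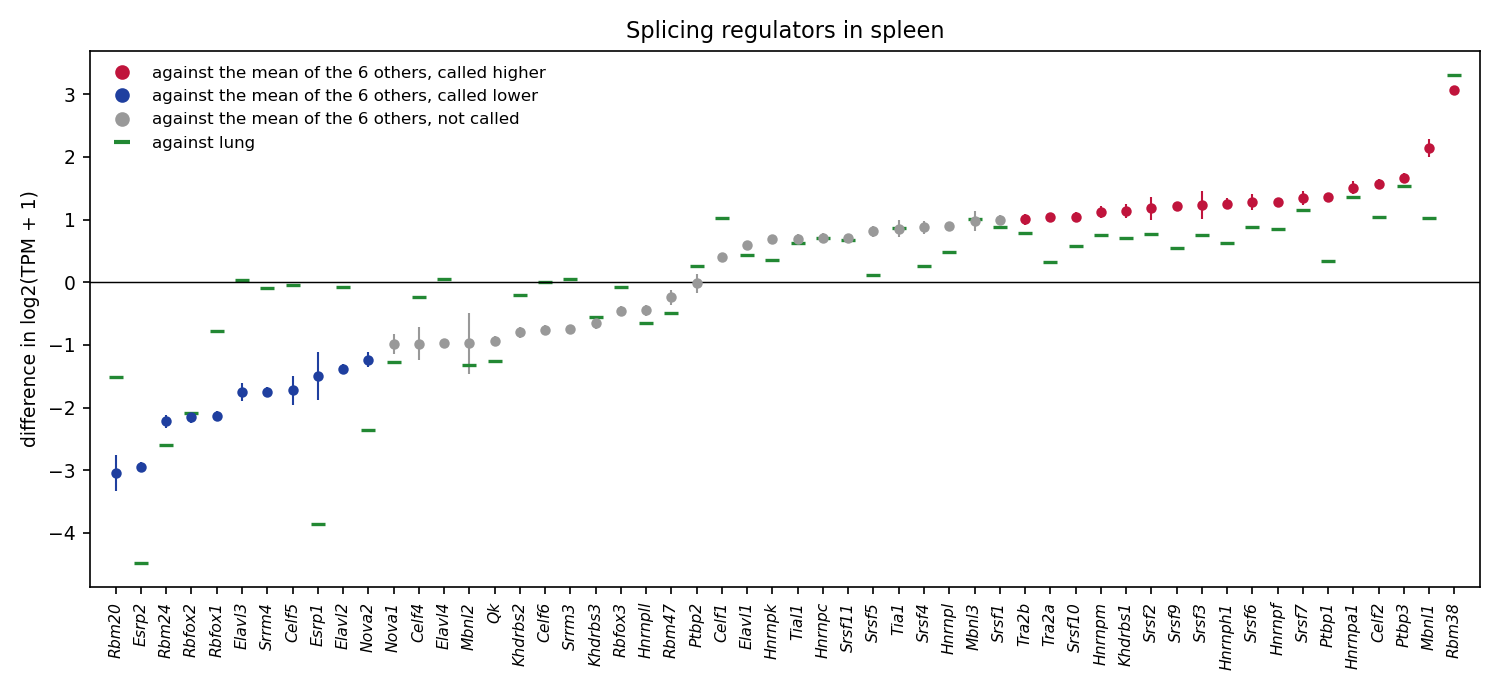
Log2 difference of 54 splicing regulators in spleen against the mean of the 6 other tissues (points, with SE as bars) and against lung (green dashes), on the log2(TPM + 1) scale. Rbm38 at 3.06 and Mbnl1 at 2.14 are among the highest, and Rbm20, Esrp2 and Rbfox2 are among the lowest.

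The gene level was set beside the inclusion of its exons. Of the distinct exons set apart as higher, 13 of 26 (50%) lay in genes called higher in spleen, as did 19 of 78 (24.4%) of those set apart as lower. In genes called lower lay 0 of the 26 and 4 of the 78 (5.13%). Over all exons tested, 20.8% lay in genes called higher and 8.80% in genes called lower. The full set of 310 exons called higher lay closer to these shares, with 74 (23.9%) in genes called higher and 31 in genes called lower. For the 714 exons called lower these counts were 100 and 109. A link between gene level and inclusion was not tested.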

How the data were processed

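RNA-seq reads of 14 libraries were mapped by the authors with HISAT2 2.0.1 without soft clipping, to mm10 and to a SPRET/EiJ genome, with longer reads trimmed to a common length; SE events were counted with rMATS. The deposited tables give, per event and replicate, lists of inclusion and skipping junction reads, and effective lengths of the 2 forms, whose values the authors deposited as a score column. The deposited gene table holds TPM values that the authors computed from stranded featureCounts counts, split between overlapping genes. Columns of the authors' own comparisons were not used. Some genes of the lists are not reported here.

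PSI was computed from reads divided by effective length, over both alleles, and 3107 events off the autosomes were left out. Genes with a mean of at least 1 TPM in a tissue were fitted with limma 3.58.1 (R 4.3.3) on log2(TPM + 1), so that differences of low genes are understated. Events were fitted on arcsine square root PSI with limma's moderated variance, leaving out events at which every library lay above 0.9 or every library below 0.1. Contrasts were spleen against the unweighted mean of the others and against lung, with Benjamini-Hochberg adjustment over all features tested. For genes, SE is that of the fitted contrast. For ΔPSI, SE was computed on the PSI scale from the replicate differences of the expressed tissues, without moderation. It is therefore not the SE behind the adjusted p of an event. Fits were tested on simulated data. The gene fit recovered 95.5% of 200 planted log2 differences of 1.5, and 1.04% of its calls were false. The exon fit recovered 55.5% of 200 planted PSI differences of 0.25, and 5.13% of its calls were false. Tables were read with Python 3.11.15, pandas 2.3.3 and numpy 2.4.6.

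Members, gene lists and tests were chosen with earlier results of these data known. Named were the 12 higher and 6 lower genes with the widest gap, the 4 highest members of each list and members against their list, the 10 exons with the widest gap each way, and called events of the isoform list; other names were chosen after their values were seen. For symbols with 2 identifiers, the one with the higher TPM was used, and 7 list entries were found under an older symbol.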

Additional observations from a re-analysis of the deposited data

How the results depend on the processing

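Depth and the 2 replicates per tissue limit these results, and genes under 1 TPM and events under 20 reads were not read. Genes set apart as higher numbered 1901 without ESC, against 1209. By its definition, the gap of a gene can only stay the same or widen when libraries are left out. Genes set apart as lower, 65 in the report, numbered 127 with a pseudocount of 0.1, 117 with median ratio scaling, 126 with quantile normalization, 116 without ESC and 171 without liver. Exons called without cortex numbered 189 higher and 477 lower. Against lung, events called higher numbered 50 on the logit scale, 156 weighted by junction reads and 186 without ESC, and events called lower 102 on the logit scale. The causes were not tested. Of the genes called, 58.6% were higher, against 45.3% with median ratio scaling, 46.9% with quantile normalization and 49.6% without liver.

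With 1 library left out, called genes ranged from 4433 to 4940 higher and 3234 to 3432 lower, and set-apart genes from 1209 to 1414 and 65 to 80. Called exons ranged from 213 to 401 higher and 529 to 849 lower, both lowest without spleen replicate 1. Set-apart exons ranged from 24 to 44 (44 without spleen replicate 2 and 43 without spleen replicate 1) and from 82 to 137 (137 without spleen replicate 2). Exons against lung ranged from 46 (without lung replicate 1) to 177 (without either ESC replicate) higher and from 98 (without lung replicate 2) to 287 lower. They also moved by over 1.5 times without lung replicate 2 (55 higher), lung replicate 1 (118 lower) and spleen replicate 1 (62 and 108).

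The log2 difference of Sdc1 ranged from -0.67 to 0.25 with 1 library left out (0.25 without spleen replicate 1) and was 0.32 without liver and 0.32 without lung. Tnnt2 ranged from -1.06 to 0.20 (0.20 without spleen replicate 2) and was 0.21 without lung. Alad, a haem enzyme, ranged from -0.29 (without spleen replicate 2) to 0.99 and was -0.056 with median ratio scaling. Of 117 gene values, 14 lost and 6 gained the call under some other setting, and of 78 exon values 20 lost it. The cause was not tested.

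Whether replicate numbers pair the libraries is not given in the labels. Differences between replicates in spleen correlated over genes at 0.25 with those in heart and 0.199 with those in lung, and at 0.0747 or less with those in the other tissues. Heart and lung gave 0.249 and kidney and lung 0.183. Over exons spleen gave 0.0027 to 0.022. Since not every pair passed 0.1, the block is given only as an alternative. With the replicate block, 4731 genes were called higher and 3346 lower, 313 exons higher and 741 lower, and 98 and 191 exons against lung.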

Other observations

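Immunoglobulin classes differed between the spleen libraries in a way that other organs shared in part. Ighg3 was at 571 and 13121 TPM in replicates 1 and 2 of spleen. Replicate 2 also held the higher Ighg3 level in heart (0.382 and 88.9 TPM), lung (4.30 and 33.7 TPM), kidney (0.172 and 2.88 TPM) and liver (0.0306 and 0.981 TPM), each at a small share of the spleen level. The variable segment Igkv3-2, picked out after its values were seen, was at 71.3 and 4706 TPM in spleen, 0.202 and 53.2 TPM in heart and 3.07 and 49.2 TPM in lung. Igha went the other way in spleen, with 3447 and 2334 TPM. Whether same-numbered libraries share an animal is not given in the labels.

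Several lymphocyte genes had their highest level outside spleen in ESC, in unequal amounts between the clones. Cd3d was at 5.80 and 48.6 TPM and Cd3e at 3.73 and 25.4 TPM in ESC, against 133 and 93.9 TPM and 138 and 103 TPM in spleen. Inpp5d and Plcg2, both of B cell receptor signalling, were at 124 and 96.9 TPM and at 88.0 and 52.2 TPM in ESC. In spleen they were at 105 and 93.4 TPM and at 144 and 129 TPM.

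Markers of lung airway and alveolar cells were found in spleen at low levels. Scgb1a1, a secretory protein of the airways, was at 106 and 74.4 TPM in spleen, 167580 and 150410 TPM in lung and at most 0.645 TPM in the other tissues. Sftpc, a surfactant protein, was at 20.4 and 13.1 TPM in spleen and 31633 and 33030 TPM in lung. Immediate early and stress genes, which respond to tissue handling, were not higher in spleen as a list, with a median log2 difference of -0.01 over 11 genes. Against lung 5 of the 11 were called lower, among them Jun at 23.0 and 18.8 TPM in spleen and 276 and 341 TPM in lung.

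Further exons set apart downwards included an exon of 48 bases in Myo9b, an unconventional myosin, with a PSI of 0.0677 and 0.0622 against 0.321 to 0.981 (median 0.852). Macf1, which links actin and microtubules, had a PSI of 0.0609 and 0.0621 at 18 bases against 0.292 to 0.888. Epb4.1, the red cell membrane protein 4.1, had 0.0151 and 0.0224 at 450 bases against 0.184 to 0.878. Fyn, a kinase of T cell signalling, had 0.686 and 0.802 at 165 bases against 0.944 to 0.994, and Piezo1, a mechanically gated channel, had 0.493 and 0.492 at 72 bases against 0.771 to 0.989. Apobec3, a restriction factor for retroviruses, had 0.105 and 0.131 at 99 bases against 0.255 to 0.473, while the gene was higher by 3.98 on the log2 scale.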
